A study of Mus musculus with 4 samples.

Results

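Interleukin 10 and interleukin 6 with their signalling route were followed through 9 genes, chosen by name as the cytokine genes Il10 and Il6, the receptor chains Il10ra, Il10rb and Il6st, the transcription factor Stat3 with its inhibitor Socs3, and the Il10 regulators Maf and Prdm1. All 9 were among the 17187 gene columns of the deposited table, and all 9 reached the mean of 10 normalised reads that was required for testing. The cells were ILC2s, that is group 2 innate lymphoid cells, which have no antigen receptor and make type 2 cytokines at barriers such as the airways, sorted from lungs of wild-type BALB/c mice and kept in culture for 18 hours. The control group, isotype, had 2 libraries of cells given an isotype control antibody, and the other group, anti-CD226, had 2 libraries of cells given an antibody against the costimulatory receptor CD226 at 5 µg/mL. The labels do not make clear whether the isotype antibody had the same dose, the series' design text speaks of treated mice, and the deposited table calls the controls PBS. Nothing in the labels says if libraries are from separate mice or cultures, nor how many animals were pooled. The p-values below therefore measure only spread among 4 libraries, and that spread may be technical. They do not rest on the spread of the named gene alone. In the main fit with limma a gene's own spread had 2 degrees of freedom, and the prior drawn from all genes weighed 5.813.

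IL-10 is a cytokine that restrains inflammation, and IL-6 is one that promotes it, yet both signal through Janus kinases (JAKs) to the transcription factor STAT3. IL-10 binds a receptor of IL-10Rα, its own chain, and IL-10Rβ, which other cytokines of the family share. IL-6 binds its own α chain and then gp130, the product of Il6st, which receptors of LIF, oncostatin M and IL-27 also use. STAT3 induces Socs3, and the SOCS3 protein binds gp130 and stops IL-6 signalling while leaving the IL-10 receptor largely untouched. c-MAF, encoded by Maf, and BLIMP-1, encoded by Prdm1, are transcription factors that drive Il10 in lymphocytes, and a subset of lung ILC2s is known to make IL-10 after activation. The gene of the IL-6 α chain, Il6ra, was looked for, but the deposited table had no column of that name.

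The genes lie on 8 chromosomes (GENCODE M21, GRCm38). Il10 spans chr1:131019845-131024974 on the plus strand and Il6 chr5:30013114-30019981 on the plus strand. Il10ra spans chr9:45253837-45269149 (minus), Il10rb chr16:91406164-91425834 (plus) and Il6st chr13:112464070-112510086 (plus). Stat3, at chr11:100885098-100939540, and Socs3, at chr11:117966079-117970047, both lie on the minus strand of 1 chromosome. Maf spans chr8:115682942-115707794 and Prdm1 chr10:44437177-44528501, both on the minus strand.

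Promoters of 5 of the 9 genes were in the RefSeq table (GRCm38.p6): Il6, Il6st, Stat3, Socs3 and Prdm1. The 250 bases before the annotated start were searched on both strands for a STAT element (TTCNNNGAA), an NF-kB element, a cyclic AMP element (TGACGTCA) and an AP-1 element (TGANTCA). The matches did not overlap each other. Socs3 held a STAT match, Il6 an NF-kB and an AP-1 match, and Prdm1 an AP-1 match, while Il6st and Stat3 held none of these letters in the window. The 3 windows with a match are shown so that the match can be read in its surroundings, and matches are in capitals. The Socs3 and Prdm1 windows lie inside the spans that GENCODE gives these genes, because the RefSeq starts used are further downstream.
Il6, chr5:30012864-30013113, plus strand: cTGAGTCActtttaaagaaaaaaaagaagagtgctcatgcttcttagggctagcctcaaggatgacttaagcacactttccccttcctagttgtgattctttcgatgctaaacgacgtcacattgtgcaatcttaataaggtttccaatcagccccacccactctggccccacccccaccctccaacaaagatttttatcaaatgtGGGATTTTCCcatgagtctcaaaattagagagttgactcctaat
Socs3, chr11:117969367-117969616, minus strand: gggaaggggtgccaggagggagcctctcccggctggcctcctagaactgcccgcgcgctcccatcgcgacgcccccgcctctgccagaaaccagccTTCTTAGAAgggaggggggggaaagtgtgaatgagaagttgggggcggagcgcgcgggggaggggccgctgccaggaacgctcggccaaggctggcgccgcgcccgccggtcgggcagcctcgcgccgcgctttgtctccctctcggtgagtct
Prdm1, chr10:44458749-44458998, minus strand: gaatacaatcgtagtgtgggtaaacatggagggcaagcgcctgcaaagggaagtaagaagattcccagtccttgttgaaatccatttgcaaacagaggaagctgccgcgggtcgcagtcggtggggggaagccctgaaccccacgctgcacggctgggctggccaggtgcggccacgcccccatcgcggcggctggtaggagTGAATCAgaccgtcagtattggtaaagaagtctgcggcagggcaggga

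In Socs3, the STAT match TTCTTAGAA lies from -154 to -146 relative to the start, and of all 32851 promoter windows of this length 7.02% hold such a match. In Il6, the NF-kB match GGGATTTTCC lies from -44 to -35, with 0.98% of windows holding one, and the AP-1 match TGAGTCA lies from -249 to -243. The AP-1 match of Prdm1, TGAATCA, lies from -48 to -42, and 6.75% of windows hold an AP-1 match. The cyclic AMP element is held by 1.55% of windows. A match describes the letters and does not show that a factor binds there.

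The libraries had an estimated depth of 12433700 to 17847249 reads, the total signal divided by the value of 1 read. Isotype libraries are called isotype 1 and 2 and anti-CD226 libraries anti-CD226 1 and 2, and values are normalised read counts unless a sentence names another scale. ILC2 markers were abundant in all 4 libraries, with Gata3 between 13811 and 17310 and Il1rl1, the IL-33 receptor, between 8220 and 9037. Markers of other cell types that can make IL-10 or IL-6 were present too, and those of macrophages were uneven. The 9 macrophage and monocyte markers in the table, of 14 listed, summed to 269 and 290.1 in isotype libraries and to 413 and 1204 in anti-CD226 libraries, of which the chitinase-like Chil3 gave 784 in anti-CD226 2 and 0 in isotype 2. Of these markers 5 were tested, and 3 (Lyz2, Cd68 and Chil3) were higher at an unadjusted p below 0.05, with an adjusted p of 0.98 for each (limma). Lyz2 had 3.32 and 0.773 in isotype against 8.24 and 51.8 in anti-CD226 libraries, and Cd68 had 35.4 and 38.6 against 55.6 and 88.2. Itgam, below the mean required for testing, had 1.11 and 0 against 19.6 and 18.7, and Mpeg1 had 0 in both isotype libraries against 4.12 and 16.5. The receptor Csf1r was between 1.03 and 2.62 in all 4. Other markers of the list did not separate the groups. Adgre1 was highest in isotype 2 and lowest in anti-CD226 2. Apoe had 14.4 and 10.8 in isotype against 11.3 and 13.2 in anti-CD226 libraries, with a log2 fold change of -0.03. The groups of Ctss overlapped, with a log2 fold change of 0.29. Those of Chil3 overlapped too, with 19.9 in isotype 1 and 16.5 in anti-CD226 1.

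In bulk samples, fewer cells that express a gene and less RNA per cell cannot be told apart. Of 13010 genes tested with limma, 0 passed an adjusted p of 0.05 (0% of genes), and 308 genes (2.37%) had an unadjusted p below 0.05, of which 202 (1.55%) were higher and 106 (0.815%) lower in anti-CD226. None of the 9 genes passed either threshold, and their adjusted p-values in limma's test were all 0.98. The groups did not overlap in 2 of the 9, Maf and Il6, against 26.8% of all genes tested. Maf was higher in both anti-CD226 libraries (13.8% of genes were) and Il6 lower in both (13% of genes were). With 2 libraries in each group the smallest two-sided p of an exact permutation test is 0.333, and for this reason limma's fit over all genes was used. The plot of the 9 genes by library shows how close the groups lie.

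**Figure D1:**
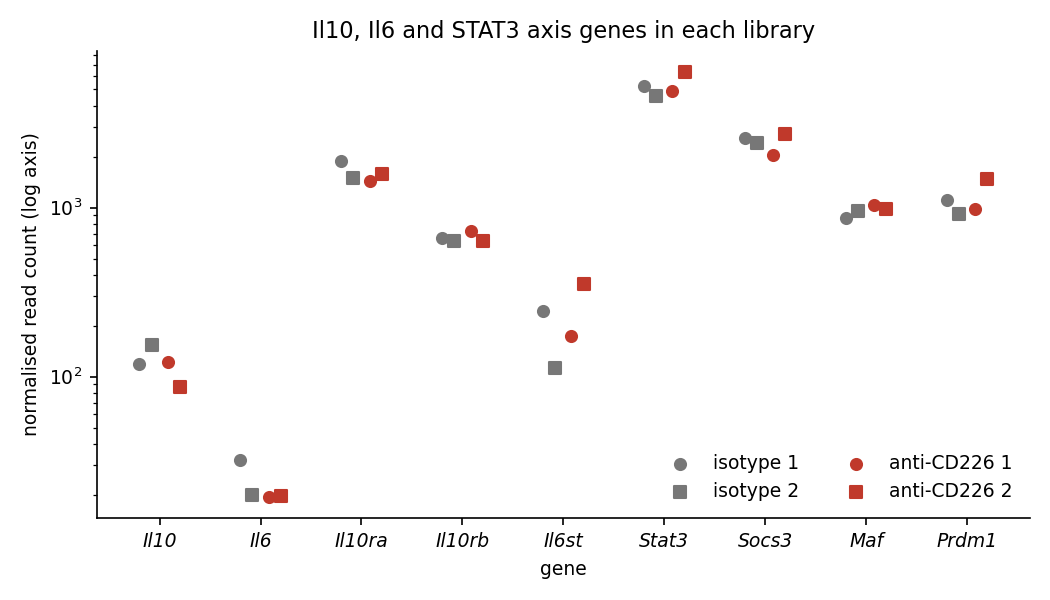
Normalised read count of each gene on a log axis, with 1 point per library (grey, isotype; red, anti-CD226; circle, replicate 1; square, replicate 2). The groups overlap for 7 of 9 genes; Il6st has the widest spread, from 113 to 355, and Il6 the lowest values, at or below 32.0.

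Il10 was transcribed in every library, at 118 and 154 normalised reads in isotype 1 and 2 and at 121 and 87.1 in anti-CD226 1 and 2. The groups overlapped: anti-CD226 2 was the lowest, isotype 2 the highest, and isotype 1 and anti-CD226 1 lay within each other's counting error. The reads behind them numbered 107 and 199 in isotype, and 118 and 79 in anti-CD226 libraries. The exact Poisson 95% interval was 96.9 to 143 for isotype 1, 133 to 177 for isotype 2, 100.6 to 145 for anti-CD226 1 and 68.9 to 109 for anti-CD226 2. Such intervals cover counting error only, because amplification of a small input copies molecules, so that reads are not independent. The means were 136 ± 25.1 in isotype and 104 ± 24.3 in anti-CD226 libraries (SD, n = 2). On the log2(value + 1) scale, which understates changes of genes with few reads, Il10 had a fold change of -0.39 (standard error 0.27) and a 95% interval from -1.01 to 0.23 (limma, adjusted p = 0.98). The interval runs from a 0.497-fold to a 1.18-fold level. Without anti-CD226 2, the log2 fold change of Il10 was -0.15, and without anti-CD226 1 it was -0.63, neither past the threshold.

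Il6 had the lowest mean level per kilobase of the 9 genes, and its normalised reads were 32.0 and 20.1 in isotype 1 and 2 and 19.6 and 19.8 in anti-CD226 1 and 2. It rested on 29, 26, 19 and 18 reads in that order. Both anti-CD226 values lay below both isotype values, but the gap between isotype 2 and anti-CD226 2 was smaller than the value of 1 read, which was 0.773 and 1.10 in those libraries. The exact Poisson 95% interval of anti-CD226 1 was 11.8 to 30.5 and that of isotype 1 was 21.5 to 46.0, so the lowest and the highest library overlapped in counting error. The means were 26.1 ± 8.46 and 19.7 ± 0.196 (SD, n = 2), the last SD being below the value of 1 read. The log2 fold change was -0.35 with a 95% interval from -1.36 to 0.66 (limma, adjusted p = 0.98). Without isotype 1 it was -0.03, so the lower mean of Il6 rests on that library.

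Cell types that make IL-10 or IL-6 were looked for beside these values. Of the B cell markers 3 of 8 were in the table, and their summed level was 222 and 197 in isotype and 241 and 184 in anti-CD226 libraries, nearly all of it Cd79b at 166 to 210.0, while Cd22 was at or below 4.64. Of the T cell markers 7 of 10 were in the table, and their sum was 3196 and 3717 in isotype and 3352 and 2277 in anti-CD226 libraries, most of it Trbc1 and Trbc2, which ILC2s can also transcribe. Trac, the constant region that mature αβ T cells need, was at or below 4.64, and Foxp3, the factor of regulatory T cells, was between 11.5 and 36.0. Cd3g was well above these, at 288 and 325 in isotype and 319 and 215 in anti-CD226 libraries. Cd3e was between 51.5 and 79.4, and Cd3d was at or below 5.53. The T cell sum and Il10 had the same order of libraries at both ends, with isotype 2 highest and anti-CD226 2 lowest. Short transcripts as a class had these ends too. In the shortest of 10 length classes the median log2 deviation from a gene's mean was 0.23 in isotype 2 and -0.40 in anti-CD226 2. Trbc1 has 512 bases, Trbc2 692 and Il10 1310. The part of B and T cells in the Il10 and Il6 values was not tested. Of the mast cell and basophil markers 9 of 10 were in the table, with a sum of 2692 and 2996 in isotype and 2324 and 3444 in anti-CD226 libraries, led by Tpsab1 and Kit. Within that list Cpa3 was lower in both anti-CD226 libraries, at 37.1 and 63.9 against 84.0 and 100.4, and so was Mcpt8, at 15.4 and 18.7 against 34.3 and 34.8. Gata2 was higher in both, at 26.8 and 20.9 against 8.84 and 10.04. These 3 were the ones of 6 tested at an unadjusted p below 0.05 (limma, adjusted p = 0.98). The 5 dendritic cell markers in the table, of 9 listed, summed to 1673 and 1472 in isotype and to 1446 and 1509.9 in anti-CD226 libraries, led by Ccr7. Ccr7 was lower in both anti-CD226 libraries, at 905 and 872 against 1081 and 972. Xcr1 had 516 and 563 against 583 and 489, and its groups overlapped. Itgax was the 1 of 4 tested at an unadjusted p below 0.05 (limma, adjusted p = 0.98), with 1.11 and 0 in isotype against 14.4 and 46.3 in anti-CD226 libraries, and Zbtb46 had 7.74 and 8.499 against 9.27 and 22.04. The part of mast cells, basophils, macrophages and dendritic cells in the Il10 and Il6 values was not tested either. The fibroblast marker in the table, Col1a1, had 9.95 and 1.55 in isotype and 1.03 and 0 in anti-CD226 libraries, where a count of 0 allows up to 3 reads or 3.31 normalised reads. Of the epithelial markers 6 of 7 were in the table, with a sum of 201 and 295 against 212 and 227, led by Epcam. Sftpc, Scgb1a1 and Krt8 were above 0 only in isotype 2, at 22.4, 13.1 and 13.1. Cdh1 was highest in anti-CD226 2, at 25.3. The endothelial marker in the table, Pecam1, had 726 and 620 against 628 and 668. The part of these cells was not tested.

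The genes most like Il10 across the 4 libraries, by Euclidean distance between deviations of log2(value + 1) from each gene's mean over 13009 other genes tested, were Hmgn3, Rida and Gm6123. Hmgn3, a nucleosome-binding protein, had 291 and 372 in isotype and 305 and 215 in anti-CD226 libraries, at a distance of 0.035. Rida lay at 0.042 and the processed pseudogene Gm6123 at 0.047. The genes most like Il6 were Gm7466, Gamt and the processed pseudogene Gm49550, at distances of 0.063, 0.068 and 0.077. All 3 were high in isotype 1 and nearly level in the other libraries. A processed pseudogene is a near copy of another gene, so the origin of its reads is uncertain. With 4 libraries and this many genes a close match describes the 4 values only.

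Both chains of the IL-10 receptor were well expressed and differed little between groups. Il10ra, the ligand-binding chain, stood at 1879 and 1502 in isotype 1 and 2 and at 1442 and 1582 in anti-CD226 1 and 2. Isotype 1 was high and the other 3 libraries lay close together, so the groups overlapped. Its log2 fold change was -0.15 with a 95% interval from -0.57 to 0.27 (limma, adjusted p = 0.98), and without isotype 1 it was 0.01. Il10rb, the shared chain, had 659 and 630.5 in isotype against 724 and 633 in anti-CD226 libraries. Isotype 2 was lowest and anti-CD226 1 highest, and the highest library had only 1.15 times the value of the lowest, the smallest ratio of the 9 genes. The log2 fold change of Il10rb was 0.07 with a 95% interval from -0.34 to 0.48, that is from a 0.792-fold to a 1.39-fold level, and it was -0.03 without anti-CD226 1.

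Il6st, which encodes gp130, varied most between libraries. It stood at 243 and 113 in isotype 1 and 2 and at 174 and 355 in anti-CD226 1 and 2, so the highest library had 3.15 times the value of the lowest. The libraries of 1 group differed as much as the groups did, and the groups overlapped. The means were 178 ± 92.1 and 264 ± 128 (SD, n = 2). The log2 fold change was 0.58, the largest in size of the 9, with a standard error of 0.43 and a 95% interval from -0.41 to 1.57 (limma, adjusted p = 0.98). Single libraries moved this value. Without anti-CD226 1 it was 1.09 (limma, adjusted p = 0.0041), in a fit where 1633 of all genes passed. It was 1.13 without isotype 1, 0.07 without anti-CD226 2 and 0.03 without isotype 2, and passed in none of these. A fit of 3 libraries has no spread for the lone library, and only 1 residual degree of freedom. Without anti-CD226 1 the prior drawn from all genes weighed 52.74 degrees of freedom. The adjusted p-values of such fits, here and below, thus rest mostly on the spread of all genes. They do not measure replicate spread of the gene named.

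Of the 17 receptor chains listed for ligands that use STAT3, 8 were in the table and 6 were tested. Of these 4 were higher and 2 lower in anti-CD226, with 0 past the adjusted or the unadjusted threshold and a median log2 fold change of 0.06, beside 0.01 over all genes tested. Il27ra, which pairs with gp130 in the IL-27 receptor, had 3703 and 3455 in isotype and 3405 and 3524 in anti-CD226 libraries. The values of Il27ra in the 2 groups overlapped, and its log2 fold change was -0.05. Il12rb1, a chain of the IL-12 and IL-23 receptors, had 3406 and 3181 against 3248 and 3585. Il20rb, a chain of IL-20 family receptors, was higher in both anti-CD226 libraries at 16.5 and 22.0 against 13.3 and 5.41, few reads in every library, with a log2 fold change of 1.07 and a standard error of 0.61 (limma, adjusted p = 0.98).

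Among the ligands of the list, 8 of 17 were in the table and all 8 were tested. In anti-CD226 3 were higher and 5 lower, 0 passed the adjusted threshold and 1, Il22, passed the unadjusted one, with a median log2 fold change of -0.09. Osm, oncostatin M, which signals through gp130, had 2289 and 2324 in isotype and 2248 and 2134 in anti-CD226 libraries. Both anti-CD226 values of Osm were below both isotype values, by a log2 difference of only -0.07. Lif, another gp130 ligand, had 1114 and 999 against 867 and 1111. The IL-10 family member Il24 had 171 and 168 against 189 and 175. Il22, a family member that shares IL-10Rβ, had 30.0 and 40.2 in isotype and 112 and 81.7 in anti-CD226 libraries, with a log2 fold change of 1.44 and a standard error of 0.32 (limma, unadjusted p = 0.0020, adjusted p = 0.98).

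Stat3 stood at 5257 and 4557 in isotype 1 and 2 and at 4869 and 6334 in anti-CD226 1 and 2. Anti-CD226 2 was highest and isotype 2 lowest, with the other 2 libraries between them, so the groups overlapped. Its log2 fold change was 0.18 (standard error 0.19) with a 95% interval from -0.25 to 0.62 (limma, adjusted p = 0.98), and it was -0.0075 without anti-CD226 2. In linear terms the interval of Stat3 runs from a 0.839-fold to a 1.53-fold level.

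Socs3, the feedback inhibitor whose transcript follows STAT3 activity, had 2590.3 and 2425 in isotype against 2045 and 2706 in anti-CD226 libraries. Both the lowest and the highest value were in anti-CD226 libraries, so the isotype values lay inside the range of the other group. The log2 fold change was -0.09 with a 95% interval from -0.53 to 0.34 (limma, adjusted p = 0.98), and it was 0.11 without anti-CD226 1. In linear terms the interval of Socs3 runs from a 0.694-fold to a 1.27-fold level.

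Genes listed as inhibitors of the pathway, Socs3 included, had no common direction. The list also holds Adam10 and Adam17, which are proteases rather than inhibitors of JAK or STAT proteins. Their log2 fold changes were 0.28 and 0.11, so both count among the higher genes. Of 19 tested, 8 had a higher and 11 a lower mean, with 0 past either threshold, a median log2 fold change of -0.02 and groups that did not overlap in 6, where the share over all genes tested is 26.8%. Cish and Socs1 act in the same family as Socs3, with Cish at 7438 and 7422 against 6900.2 and 8568 and Socs1 at 6548 and 6859 against 7475 and 6450.0, with overlapping groups. Sh2b3, the adaptor LNK that restrains JAK2, had 474 and 503 in isotype and 538 and 754 in anti-CD226 libraries, the smallest p of this list (limma, adjusted p = 0.98). Ptpn11, the phosphatase SHP2 that docks on gp130, had 774 and 739 against 601 and 630.4, lower in both anti-CD226 libraries with a log2 fold change of -0.30 and a standard error of 0.17. Pias1, a SUMO ligase that acts on STAT proteins, had 883 and 794 against 959 and 1119. The protease Adam10 had 2696 and 2235 against 2531 and 3493.

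**Figure D2:**
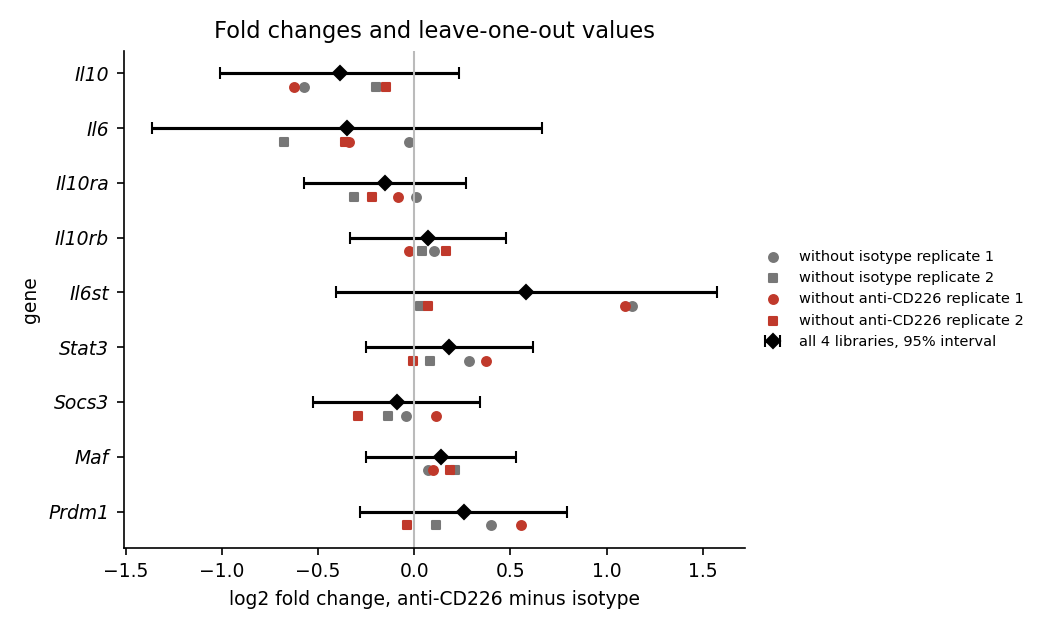
Log2 fold change of each gene (anti-CD226 minus isotype, log2(value + 1) scale). Diamonds are the fit of all 4 libraries with its 95% interval and small symbols the fits that leave out 1 library; every interval of the 9 genes holds 0, and Il6st moves from 0.03 to 1.13 with the library left out.

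Genes of the JAK and STAT families were all higher on average in anti-CD226, and their libraries had nearly the same order. Of 11 tested, 11 had a fold change above 0 (51.1% of all genes did, and 48.9% were below 0). The median of the list was 0.23 on the log2 scale, and 0 of its genes passed either threshold. In 11 of 11, anti-CD226 2 was the highest library and isotype 2 the lowest, as in 19.5% of all genes tested. In 9 of 11 the order from low to high was isotype 2, anti-CD226 1, isotype 1, anti-CD226 2, as in 13.7% of all genes tested. Jak1, the kinase shared by the IL-10 and IL-6 receptors, had 9157 and 7240.4 in isotype against 8241 and 11700.4 in anti-CD226 libraries. Jak2, which also serves gp130, stood at 1822 and 1377 against 1674 and 2143, and Jak3, the kinase of the common γ chain, at 6838 and 5626 against 5939 and 8901. Stat5a, a factor below IL-2 and IL-7, had 762 and 687 against 801 and 908, groups that did not overlap.

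Il6st, Stat3 and Prdm1 shared that order of libraries among the 9 genes. The same order was seen in how genes followed transcript length. Spearman's rho between transcript length and a gene's deviation from its mean, over 12737 genes, was -0.49 in isotype 2, -0.37 in anti-CD226 1, -0.0022 in isotype 1 and 0.54 in anti-CD226 2. Since each deviation is taken from a gene's mean over these libraries, the 4 values of rho are relative to each other. The part of length in the order of the genes above was not tested. The longest transcript is 8678 bases in Il6st, 6042 in Stat3 and 5281 in Prdm1, the median of the JAK and STAT list is 4828, and Il10 has 1310. With each library's length trend removed, the log2 fold change was 0.03 for Stat3, 0.38 for Il6st, 0.13 for Prdm1, -0.26 for Il10 and 0.14 for the median of the JAK and STAT list. Without anti-CD226 2 that median was 0.02, and without isotype 2 it was 0.06.

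**Figure D3:**
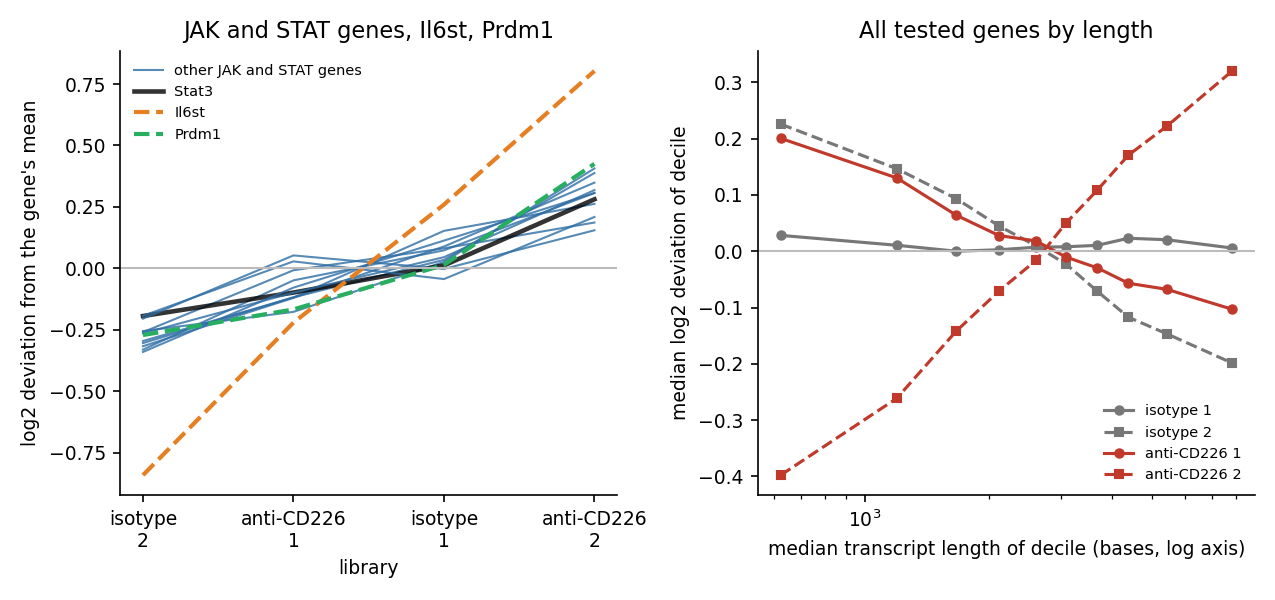
Left, log2 deviation of each JAK and STAT gene, Il6st and Prdm1 from its own mean in the 4 libraries, with lines joining the values of 1 gene; all are lowest in isotype 2 and highest in anti-CD226 2. Right, median deviation of all tested genes in 10 classes of transcript length (log axis), which runs from -0.40 in the shortest to 0.32 in the longest class in anti-CD226 2 and from 0.23 to -0.20 in isotype 2.

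Transcripts known to be induced by STAT3 showed no shift as a list. Of 23 tested of 26 listed, 12 had a higher and 11 a lower mean, the median log2 fold change was 0.05, with 0 past either threshold and groups apart in 5 (26.8% of all genes tested). Hif1a, the hypoxia factor, had 11361 and 9983 against 11065 and 14107, the library order of Stat3 itself. Pim1, a survival kinase, had 6432 and 6228 against 5743 and 6707. Bcl3, a partner of NF-kB, was level in 3 libraries (1821 and 2080.0 in isotype, 1952 in anti-CD226 1) and high in anti-CD226 2 at 3036. Its log2 fold change was 0.32 with all libraries and 0.64 without anti-CD226 1 (limma, adjusted p = 0.010). Cebpd, an acute phase factor, had 20.8 and 33.8 against 55.5 and 33.7, and its groups overlapped.

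Maf varied less between libraries than Prdm1. It stood at 870 and 957 in isotype 1 and 2 and at 1037 and 975 in anti-CD226 1 and 2. Both anti-CD226 values were above both isotype values, though anti-CD226 2 exceeded isotype 2 by little. The means were 913 ± 61.4 and 1006 ± 43.5 (SD, n = 2), and the log2 fold change was 0.14 with a 95% interval from -0.25 to 0.53 (limma, adjusted p = 0.98). With the length trend removed it was -0.016, a change of sign. The transcript of Maf has 6360 bases.

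Prdm1 stood at 1116 and 916 in isotype 1 and 2 and at 984 and 1485 in anti-CD226 1 and 2. Anti-CD226 2 was high and anti-CD226 1 lay between the isotype values, so the groups overlapped. Its log2 fold change was 0.26 (standard error 0.23) with a 95% interval from -0.28 to 0.80 (limma, adjusted p = 0.98). Without anti-CD226 1 it was 0.55 (limma, adjusted p = 0.034), and it was -0.038 without anti-CD226 2. Prdm1 and Il10 had opposite extremes. Anti-CD226 2 had the highest Prdm1 and the lowest Il10, and isotype 2 had the lowest Prdm1 and the highest Il10. Prdm1 shared its extremes with 19.5% of all genes tested. Il10 has the shorter transcript, 1310 bases against 5281. In isotype 2 the median log2 deviation of genes was 0.23 in the shortest and -0.20 in the longest class of transcript length. In anti-CD226 2 these medians were -0.40 and 0.32. A link between Prdm1 and Il10 was not tested.

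Of 28 tested genes listed as transcription factors that control Il10, Maf, Prdm1 and Stat3 included, 21 had a higher mean (51.1% of all genes) and 7 a lower one. The list also holds Zfp36, an RNA-binding protein, which is among the higher genes with a log2 fold change of 0.16. The median log2 fold change was 0.17, with 0 past either threshold and groups apart in 9. Of these 7 were higher and 2 lower, where 13.8% and 13% of all genes tested were. In 14 of the 28 anti-CD226 2 was highest and isotype 2 lowest, as in 19.5% of all genes tested, and the list's median was 0.05 once the length trend was removed. Ikzf3, the Ikaros family member Aiolos, was higher in both anti-CD226 libraries at 2508 and 2276 against 1923 and 1844, with a log2 fold change of 0.34 and a standard error of 0.16 (limma, adjusted p = 0.98). Batf, an AP-1 family factor, was lower in both, at 1331 and 886 against 1346 and 1422. Without anti-CD226 1 the log2 fold change of Batf was -0.64 (adjusted p = 0.012) and without anti-CD226 2 it was -0.06. Egr2, a factor induced by antigen receptor signals, had 18.5 and 27.6 against 13.3 and 6.18. The factors Id2, Gata3 and Ets1 had log2 fold changes of -0.14, 0.20 and 0.19.

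BLIMP-1 and c-MAF also drive a set of co-inhibitory receptors together with Il10 in T cells. Of 7 tested of 9 listed, 4 had a higher and 3 a lower mean, the median log2 fold change was 0.06, and 0 passed either threshold. Pdcd1, which encodes PD-1, had 3366 and 3379 in isotype and 2939 and 2603 in anti-CD226 libraries. Both anti-CD226 values of Pdcd1 were lower, with a log2 fold change of -0.29 and a standard error of 0.16 (limma, adjusted p = 0.98). Klrg1 had 2939 and 3307 against 3158 and 2110, and without anti-CD226 1 its log2 fold change was -0.56 (adjusted p = 0.023). Cd274, which encodes PD-L1, had 127 and 124 against 143 and 138. It counts in this list although PD-L1 is the ligand of PD-1 and not itself a receptor of the set. Procr had 8.84 and 6.95 against 15.4 and 23.1, few reads in every library.

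To set levels of different genes side by side, values were taken per kilobase of the longest transcript, a measure that assumes that this transcript is the one expressed. By that measure Socs3 and Stat3 were the highest of the 9, with a mean of 957 and 870 normalised reads per kilobase, and their library values overlapped (801 to 1060 and 754 to 1048). Il10ra followed with 412 to 537 per kilobase and lay above Il10rb, with 341 to 391, in every library. Prdm1, with 173 to 281, lay above Maf, with 137 to 163. Il10 had 66.5 to 117 per kilobase, which is above every value of Il6st (13.0 to 40.9). Il6st and Il6, with 8.35 to 13.7 per kilobase, overlapped at 1 library, isotype 2 of Il6st. The order of the other neighbours was the same whichever library was read, as the plot of levels per length shows.

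**Figure D4:**
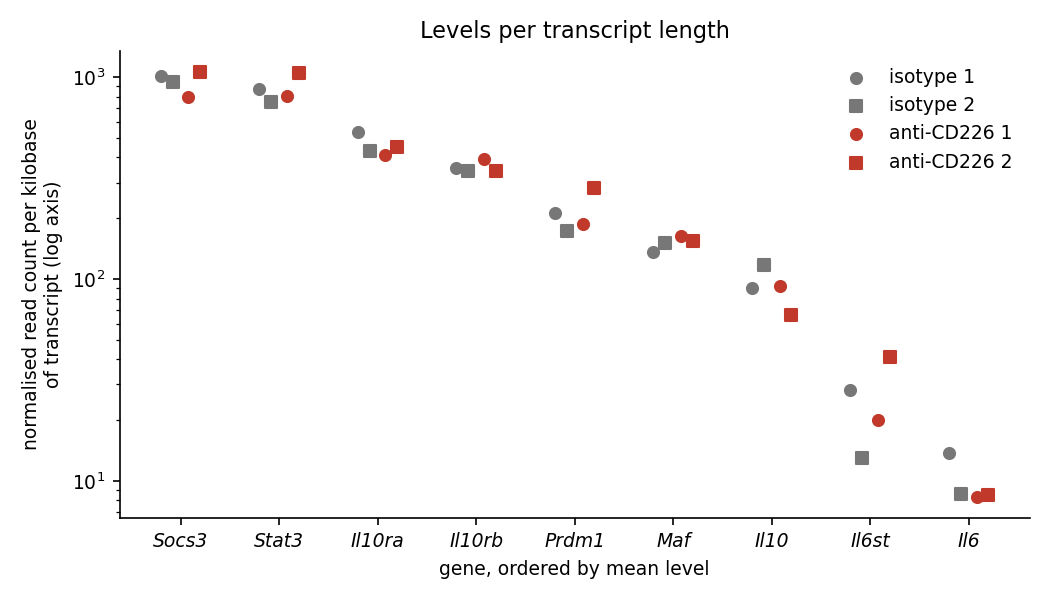
Normalised read count per kilobase of the longest annotated transcript on a log axis, genes ordered by mean, 1 point per library. Socs3 and Stat3 overlap at the top, and Il6st, from 13.0 to 40.9, overlaps Il6, from 8.35 to 13.7, at the bottom.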

How the data were processed

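The labels' protocols describe a low-input cDNA kit (SMARTer Ultra Low Input v3) and cultured ILC2s. The tools named, per the submitters' processing notes, are DESeq2, Partek 10.0 and STAR 2.7.8, with the build mm10. How reads were assigned to genes, and whether by strand, is not given in the sources used here, so overlapping genes may share reads. The table deposited by the authors holds a normalised signal for every gene in each library. Between 73.5% and 75.1% of values were whole multiples of 1 step (tolerance 0.02 of a step), taken as 1 read. The remaining values were fractional, so count models were not used. Of the gene columns, 159 were listed singly by name, while the check for whole multiples ran over the values of each library.

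Genes with a mean of 10 or more (13010) were tested with limma 3.58.1 in R 4.3.3 on log2(value + 1). The test was two-sided, with a mean-variance trend, no replicate term and Benjamini-Hochberg adjustment. The code was also run on simulated counts with a fixed spread and no length trend. That run does not show how the test performs on these libraries. Gene positions and lengths are from GENCODE M21 (GRCm38), with a length for 97.5% of genes. All 9 members are named; of each of the 7 pathway lists, those named are among the 3 smallest p and the 3 highest means, and for Il10 and Il6 the 3 genes at the smallest distance. Marker genes named singly were chosen after their values were seen. Members and lists were chosen with earlier results of these data known. Alternatives covered pseudocount, filter, scaling, variance prior, length trend, replicate block and leaving out each library.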

Additional observations from a re-analysis of the deposited data

How the results depend on the processing

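Over 17 alternatives the 9 genes gave 152 values, of which 144 kept the direction and the side of the threshold, 6 changed sign and 2 newly passed. The count of all genes past an adjusted p of 0.05, 0 in the reported fit, was 20 with a replicate block, 61 with the crossed replicate block, and between 12 and 1633 leaving out 1 library, the highest without anti-CD226 1. Of the 9 genes, between 0 and 2 passed leaving out 1 library, the 2 being Il6st and Prdm1 without anti-CD226 1, and 0 passed under the other alternatives. The count stayed 0 for all genes under each pseudocount, filter, scaling, prior and the length trend.

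Signs changed, leaving out 1 library, for Il10ra (-0.31 to 0.0081), Il10rb (-0.026 to 0.17), Stat3 (-0.0075 to 0.37), Socs3 (-0.29 to 0.11) and Prdm1 (-0.038 to 0.55). They also changed for Cish (-0.11 to 0.21), Ets1 (-0.034 to 0.41), Id2 (-0.36 to 0.076), Il12rb1 (-0.019 to 0.12), Il27ra (-0.10 to 0.0038), Jak3 (-0.063 to 0.52), Klrg1 (-0.56 to 0.018), Lif (-0.28 to 0.075), Pim1 (-0.14 to 0.084) and Socs1 (-0.055 to 0.16). List medians that changed sign in this way were those of the ligands (-0.13 to 0.061), the inhibitors (-0.030 to 0.054), STAT3 targets (-0.025 to 0.11) and co-inhibitory receptors (-0.15 to 0.26). Maf was -0.016 with the length trend removed, and the median of the co-inhibitory receptors was -0.057 with a filter at a mean of 50. The cause was not tested.

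Replicate numbers are shared by the groups in the sample titles, but do not show that libraries were paired. Across 13010 genes, deviations of same-numbered libraries from their group means had a Pearson's r of -0.24, and the crossed block was added after seeing the data. With the replicate block no member passed. With 2 libraries a group and, for Il6, at most 29 reads in a library, the printed intervals were wide. They give the changes compatible with these libraries and do not mark which differences could be detected.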
